A study of Homo sapiens with 8 samples.

Results

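ESRP1-overexpressing Caco-2 cells were compared with Caco-2 cells carrying the Empty vector, with 2 arrays per group, all 4 on 1 Illumina BeadChip. Probes were taken into the comparison where the detection p was under 0.01 on at least 2 of these 4 arrays, and 15680 of the 47322 probes on the array met this rule. They measured 9714 of the 20046 genes that the array names. Caco-2 cells, an established line from a human colorectal adenocarcinoma, were grown adherent under standard culture in both groups. The first group had received a lentivirus made from pLX304 that carries the ESRP1 cDNA, and the second the vector without it. No source used here says whether either line was a pool or 1 clone. The other 4 of the 8 arrays, on a second chip, held ESRP1-silenced cells (pLKO.1 lentivirus, both arrays with the hairpin sh4) and their Scr controls with a scrambled hairpin. The sources do not say that the 2 arrays of a group came from separate cultures, so p-values here cover just the variation from array to array, which may be technical.

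ESRP1 (epithelial splicing regulatory protein 1) is an RNA-binding protein of epithelial cells that binds GU-rich motifs in pre-mRNA and steers the choice of alternative exons towards epithelial isoforms, for example in FGFR2, CD44, CTNND1 and ENAH. It is lost in epithelial-mesenchymal transition and is known for keeping epithelia in their differentiated state. Caco-2 cells are used as a model of the intestinal absorptive cell, since at confluence they form tight junctions and a brush border, and they also make plasma proteins that are otherwise typical of fetal and adult liver.

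ESRP1 itself was higher in ESRP1-overexpressing cells. The ESRP1 probe stood at 9.75 and 9.96 (log2 level) in ESRP1-overexpressing cells, against 8.26 and 7.91 in Empty cells. The groups did not overlap, and all 4 arrays detected the probe. The log2 fold change was 1.77 (SE 0.17, where SE is the standard error, adjusted p = 0.0016 from limma), or 3.41-fold. The call held under each limma alternative for which this probe was reported. Log2 fold changes there were 1.33 to 1.95, with adjusted p of 1.4e-05 to 0.028 from limma. It did not hold under the methods' t-test after Benjamini-Hochberg adjustment, which called 0 probes higher at 0.05. Levels here are log2 signals after background correction and normalization of all 8 arrays together, and a probe is called where its adjusted p from limma is under 0.05. No source used here gives whether the 1 ESRP1 probe lies in the part of the mRNA that the vector carries.

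Median raw signals ran from 167.1 to 227.3 over the 8 arrays and detected probes from 15153 to 17535, with the ESRP1-overexpressing arrays (15153 and 15370) close to the Empty arrays (15282 and 15627). Across the 15680 probes the ESRP1-overexpressing arrays correlated with each other at r = 0.99, the Empty arrays at 0.987, and arrays of different groups at 0.969 to 0.971. Of the epithelial markers 8 of 10 were detected on both arrays of both groups, among them CDH1, CDH17, KRT8, KRT19, VIL1 and CDX2, while LGALS4 and GPA33 were not detected on any of the 4. The summed log2 levels of the 10 epithelial markers were 116.9 on both ESRP1-overexpressing arrays, against 115.7 to 116.3 on the Empty arrays. Of the markers of other cells, 1 of 8 for fibroblasts, 0 of 6 for endothelium and 2 of 7 for leukocytes were detected on both arrays of both groups. PTPRC, which marks leukocytes, and CD3E, which marks T cells, were not detected.

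A total of 891 probes were called higher in ESRP1-overexpressing cells, 5.68% of those tested, and 792 were called lower, 5.05%. Together these 1683 calls were 10.7% of the probes. With 1 probe a gene, the brightest, 577 of 9714 genes were higher (5.94%) and 507 were lower (5.22%), so that 11.2% of genes were called. The median log2 fold change of all genes was 0. The absolute log2 fold change had a median of 0.22 over all probes, against median differences of 0.129 between the 2 ESRP1-overexpressing arrays and 0.152 between the 2 Empty arrays. Of the 1683 called probes 1683 did not overlap between the groups, and neither did 60.3% of all probes. Lack of overlap in a called gene, stated above or below, was thus shared by all called probes and adds no separate support. The number of arrays limits the precision: with 2 arrays a group, the smallest two-sided p of an exact permutation test is 0.333. The count also rested on single arrays. Without ESRP1-overexpressing replicate 1 or 2, 560 or 732 probes were called, and without Empty replicate 1 or 2, 993 or 926.

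By estimated log2 fold change, large changes went upward more often than downward. Among called probes, 274 were higher and 235 lower by at least 1 log2 unit. By at least 2, 64 were higher and 27 lower, and by at least 3, 18 were higher and 0 lower. These counts also use signals of probes not detected in the dimmer group, for which only a lower bound is given below. PAMR1, for example, counts here at 4.57 log2 units, with a bound of at least 6.15-fold. How far the difference between rises and falls rests on such signals was not tested. In these bulk samples, fewer cells that express a gene and less of its RNA per cell cannot be told apart. Called probes were more frequent among dim probes: with the probes cut by mean level into 4 equal bins, 14.4% were called in the lowest bin and 5.79% in the highest.

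The largest rises included secreted and cell-surface proteins of the gut. TSPAN8, a tetraspanin of the cell surface of gastrointestinal cancers, had log2 levels of 14.56 and 14.34 in ESRP1-overexpressing cells, against 10.49 and 10.44 in Empty cells. The change was 3.98 (SE 0.12, adjusted p = 1.3e-05 from limma), or 15.7-fold. LYZ, the lysozyme secreted by Paneth cells and phagocytes, was at 12.54 and 12.52 in ESRP1-overexpressing cells, against 8.54 and 8.53 in Empty cells. It rose by 3.99 log2 units (SE 0.18, adjusted p = 7.2e-05 from limma), 15.9-fold, while its second probe rose by 0.80. Neither gene overlapped between the groups. BTNL8, a butyrophilin-like protein of the intestinal epithelium that interacts with T cells, was detected only on the ESRP1-overexpressing arrays of the 4, at 9.73 and 9.65, against 6.18 and 5.67 in Empty cells. All 3 of its probes were higher.

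Where a probe was detected on no array of the dimmer group, the change is given as a lower bound. It sets the mean of the brighter group against the dimmest detected signal of each array of the dimmer group, or against the probe's own signal where that is higher. PAMR1, a secreted protein with a peptidase-like domain, was at 9.56 and 9.68 in ESRP1-overexpressing cells, against 5.08 and 5.02, not detected, in Empty cells. It was at least 6.15-fold higher (adjusted p = 1.2e-05 from limma). HSD17B2, a dehydrogenase that inactivates estradiol and testosterone, was at 10.5 and 10.41, against 5.74 and 6.62 in Empty cells, at least 11-fold higher (adjusted p = 2e-04 from limma). OCIAD2, a membrane protein of mitochondria and endosomes, was at 10.42 and 10.31, against 6.07 and 6.39 in Empty cells, at least 10.3-fold higher. HKDC1, a hexokinase-like enzyme, was at least 7.03-fold higher and PIWIL1, a germline protein that binds small RNAs, at least 5.51-fold. These 5 genes were well separated, each Empty array lying more than 2 log2 units under both ESRP1-overexpressing arrays.

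SULF2, which removes sulfate groups from heparan sulfate outside the cell, had log2 levels of 10.14 and 9.96 in ESRP1-overexpressing cells, against 6.26 and 7.4 in Empty cells. The log2 fold change was 3.22 (SE 0.32, adjusted p = 0.0017 from limma), and its other 2 probes were at least 9.17-fold and at least 2.4-fold higher. UCA1, a long non-coding RNA first described in bladder cancer, was at 10.05 and 10.17, against 7.32 and 7.27 in Empty cells. It rose 7.06-fold (log2 fold change 2.82, SE 0.13, adjusted p = 6.2e-05 from limma). Further genes among the 20 largest rises were WWTR1 (the Hippo pathway co-activator TAZ), at least 2.61-fold higher, L1TD1, an RNA-binding protein of pluripotent cells, at least 2.97-fold, CPS1, the entry enzyme of the urea cycle, at least 1.62-fold, and PLD5, of the phospholipase D family, at least 2.25-fold. Of the 20 rises, 20 kept their call on leaving out any 1 of the 4 arrays.

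**Figure D1:**
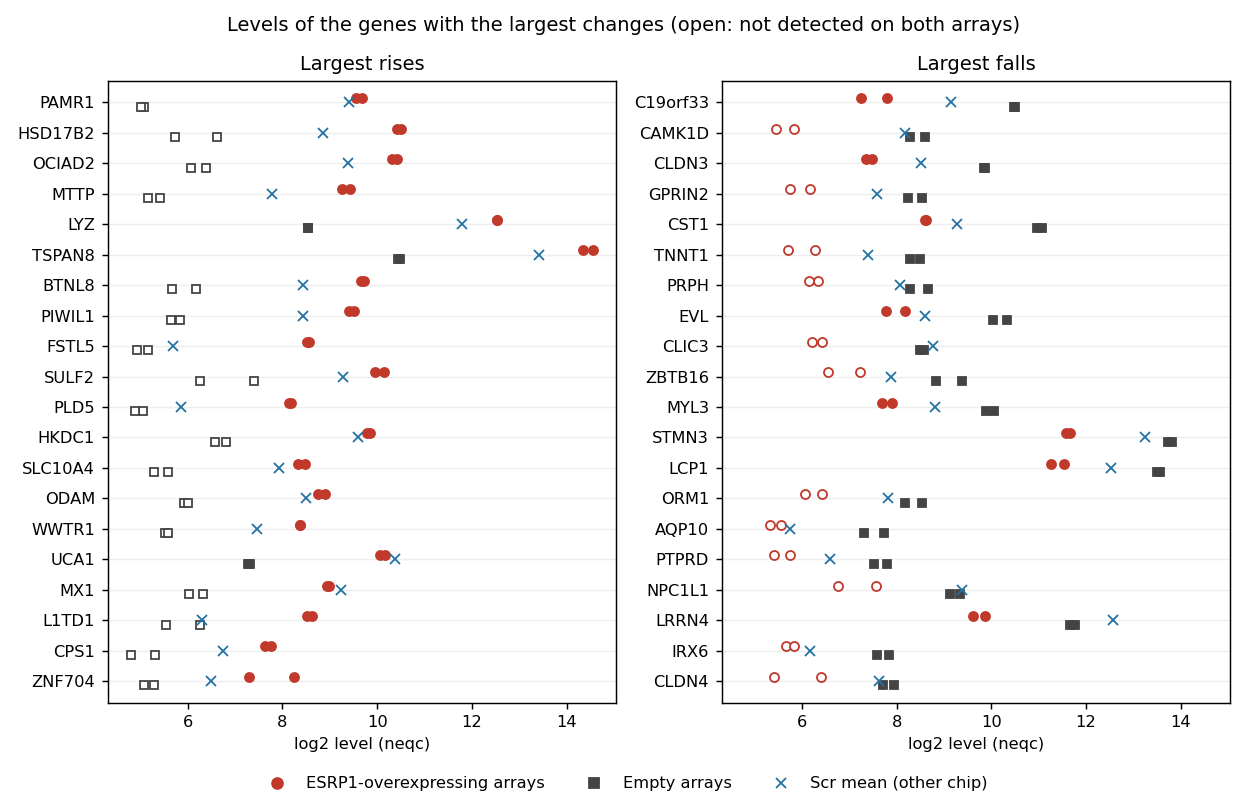
Log2 levels (x axis, after normalization) of the genes with the largest rises and the largest falls (y axis) on each ESRP1-overexpressing and Empty array, with the Scr mean of the other chip. Points of the ESRP1-overexpressing arrays lie to the right of the Empty points for every rise, as for TSPAN8 (14.56 and 14.34 against 10.49 and 10.44), and to the left for every fall, as for STMN3 (11.57 and 11.66 against 13.72 and 13.82).

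The largest falls held claudins, cytoskeletal proteins and genes of nerve and muscle. C19orf33 (also called IMUP) was at 7.24 and 7.8 in ESRP1-overexpressing cells, against 10.49 and 10.47 in Empty cells, a log2 fold change of -2.96 (SE 0.21, adjusted p = 0.00041 from limma). CLDN3, a claudin that seals tight junctions, was at 7.36 and 7.48, against 9.84 and 9.87 in Empty cells, with a log2 fold change of -2.44 (SE 0.12, adjusted p = 8.4e-05 from limma). CST1, a secreted inhibitor of cysteine proteases, was at 8.61 and 8.62, against 10.97 and 11.07 in Empty cells, a log2 fold change of -2.40. As with every called probe, these 3 genes did not overlap between the groups. LCP1 (L-plastin, which bundles actin) and EVL, an Ena/VASP protein of actin filament growth, changed by -2.13 and -2.22, and MYL3, a myosin light chain of slow muscle and heart, by -2.17. TNNT1, the troponin T of slow muscle, was at least 2.54-fold lower, CLIC3 at least 2.8-fold and the phosphatase receptor PTPRD at least 1.53-fold. ZBTB16, a zinc-finger repressor, changed by -2.21 and NPC1L1, which takes up dietary cholesterol, by -2.06. Of the 20 falls only CLDN4, at least 1.72-fold lower, lost its call without single arrays, with adjusted p of up to 0.088 from limma without ESRP1-overexpressing replicate 2, Empty replicate 1 or Empty replicate 2.

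Detection itself changed for probes that were detected on both arrays of a group and on neither of the other. A total of 281 probes were detected only in ESRP1-overexpressing cells, of which 186 were called and 47 were at least 2-fold higher. Another 314 were detected only in Empty cells, of which 170 were called and 21 were at least 2-fold lower, the largest bound being 2.93-fold for a probe of CD74. Probes of both sets passed the detection filter only through the group where they were high. Their counts of calls are thus a description, beside 10.7% called of all probes. KYNU (kynureninase of tryptophan breakdown) gained detection at 1 probe, at 9.22 and 9.13 against 5.66 and 5.67 in Empty cells, at least 4.52-fold higher. Its other probe was detected in both groups and rose by 1.48.

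Genes of the liver-type secretory programme moved in both directions. Gene lists here and below were chosen with earlier results of these data known, so their counts are a description. Of 27 measured plasma proteins 9 were higher and 5 lower, against 11.2% of all genes called, and their median log2 fold change was 0.151 against 0 for all genes. AFP, the fetal counterpart of albumin, was at 12.81 and 12.83 in ESRP1-overexpressing cells, against 10.96 and 10.93 in Empty cells. It rose by 1.87 log2 units (SE 0.13, adjusted p = 0.00042 from limma). ALB rose by 0.95, and the 3 fibrinogen chains FGG, FGA and FGB rose by 1.37, 1.18 and 0.97. Vitronectin (VTN) rose by 1.29 and the retinol carrier RBP4 by 1.17. Other plasma proteins were lower. The orosomucoid ORM1 was at least 2.47-fold lower and ORM2 changed by -1.43, as did the complement factor CFB by -1.31 and the carboxypeptidase subunit CPN1 by -1.15. KNG1, the kininogen, was at least 2.01-fold lower. The 5 measured members on chromosome 4 (AFP, ALB, FGA, FGB and FGG) were all higher, and of the 22 elsewhere 4 were higher and 5 lower, with a median of -0.139. On leaving out any 1 of the 4 arrays, 6 to 9 members were higher and 5 lower.

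The start of the consensus of HNF1, a homeodomain factor that drives liver and gut genes, was searched on both strands of the RefSeq promoters (250 bases before to 50 after the gene start, GRCh38.p14) as GTTAAT, any base and ATT. It stood in 113 of 35116 promoters (0.322%), and in 3 of the 23 plasma protein genes that had a promoter in the table, out of 27 measured. The matches in the called genes AFP and FGA are shown because both rose with ESRP1 overexpression. AFP lies at chr4:73436064-73436123 on the plus strand, with the match 132 bases before its start, and FGA at chr4:154590764-154590823 on the minus strand, with the match 56 bases before. Capitals mark the motif, which in FGA is read on the opposite strand. A match is a description of the letters and not of binding.
AFP: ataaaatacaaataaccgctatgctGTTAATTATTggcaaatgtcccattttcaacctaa
FGA: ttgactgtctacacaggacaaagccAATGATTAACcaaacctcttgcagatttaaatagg

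More genes of lipid handling were higher than lower. Of 24 measured genes of lipoprotein assembly and lipid handling 10 were higher and 3 lower, where 5.94% of all genes were higher and 5.22% lower, with a median of 0.336, and 5 to 7 were higher on leaving out any 1 of the 4 arrays. MTTP, which loads lipid onto apolipoprotein B, was at 9.25 and 9.43 in ESRP1-overexpressing cells, against 5.41 and 5.17, not detected, in Empty cells. It was at least 5.07-fold higher (adjusted p = 1.3e-05 from limma). APOB, the protein that MTTP loads, rose by 0.84, and the lipoprotein receptor LRP8 by 1.24. NPC1L1 and MOGAT3, an acyltransferase that rebuilds glycerides in the enterocyte, fell, the second by at least 1.42-fold. The 3 genes named first were separated between the groups.

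Among 20 measured brush border genes 5 were higher and 3 lower. That is 40% called, against 26.1% of the amino acid and peptide transporters below and 11.2% of all genes. SLC7A9 and SLC3A1 form the transporter of cystine and basic amino acids, and they rose by 1.81 and 1.5. SLC7A9 was at 10.54 and 10.71 in ESRP1-overexpressing cells, against 8.67 and 8.97 in Empty cells. The deacetylase AADAC was at least 2.71-fold higher. ALPI, the intestinal alkaline phosphatase, was at 5.9 and 7.26, against 8.54 and 8.46 in Empty cells, a log2 fold change of -1.92 (SE 0.41, adjusted p = 0.027 from limma). Its ESRP1-overexpressing arrays lay further apart than its Empty arrays, and the call was lost without ESRP1-overexpressing replicate 1 or either Empty replicate, with adjusted p of up to 0.083. Amino acid and peptide transporters as a list had 6 of 23 higher and 0 lower, on 6 chromosomes, among them SLC36A4 at 1.55 and SLC16A10 at 1.28, and 4 or 5 on leaving out any 1 of the 4 arrays.

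Among tight junction genes claudins moved in opposite directions. In the list 1 was higher and 4 lower of 19 measured, which is 26.3% called, against 11.2% of all genes. The pore-forming CLDN2 was at 7.14 and 7.71 in ESRP1-overexpressing cells, against 5.55 and 5.83, not detected, in Empty cells, and was at least 1.34-fold higher. CLDN3 and CLDN4 were lower, as was SCRIB, a polarity scaffold, by 0.65 log2 units, whose call was lost without either ESRP1-overexpressing replicate or Empty replicate 1 (adjusted p up to 0.074 from limma). On leaving out any 1 of the 4 arrays, 1 or 2 members were higher and 1 or 2 lower. In the adherens junction list CDH6, a kidney-type cadherin, rose by 1.6 (9.05 and 8.91, against 7.42 and 7.35 in Empty cells), and CDH1 differed by 0.07 and was not called (adjusted p = 0.78 from limma). The intermediate filament VIM rose by 0.83 (adjusted p = 0.006 from limma) and by 1.93 at its second probe. EPCAM rose by 0.68 (adjusted p = 0.042 from limma) at its brightest probe, while its other 2 probes gave 0.02 and 0.47 and were not called. That EPCAM call was lost without either ESRP1-overexpressing replicate or Empty replicate 2, with adjusted p of up to 0.18.

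Most measured genes of the nerve and neuroendocrine list were lower. Its members were chosen with earlier results of these data known, so its counts are a description. Of 22 measured members 15 were lower and 2 higher, where 5.22% of all genes were lower, with a median log2 fold change of -0.814, or -0.749 with bounded genes at their bound. The called members lie on 12 chromosomes, and 10 or 11 genes of the list were lower on leaving out any 1 of the 4 arrays. STMN3, a stathmin that destabilizes microtubules, was at 11.57 and 11.66 in ESRP1-overexpressing cells, against 13.72 and 13.82 in Empty cells, a log2 fold change of -2.15 (adjusted p = 0.00014 from limma). Peripherin (PRPH), a neuronal intermediate filament, was at least 2.69-fold lower, the calmodulin-dependent kinase CAMK1D at least 2.62-fold and GPRIN2, a protein of neurite outgrowth, at least 2.54-fold. Neither STMN3 nor these 3 genes overlapped between the groups. The 2 members that rose were UCHL1, a ubiquitin hydrolase of neurons on chromosome 4, by 1.47, and SLC18B1, a vesicular polyamine transporter, by 0.73. Both were named after their values were seen.

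Secretory-lineage genes split, 3 higher and 4 lower of 14, and 2 or 3 each way on leaving out any 1 of the 4 arrays. Besides LYZ, GCNT3, which builds the core structures of mucin glycans, was at 10.32 and 10.3 in ESRP1-overexpressing cells, against 9.19 and 9.16 in Empty cells, and rose by 1.14. MUC1, a membrane mucin, changed by -1.34, with its call lost without ESRP1-overexpressing replicate 2 (adjusted p = 0.062 from limma), and the secreted phospholipase PLA2G10 by -1.18. ZG16, a lectin of goblet cell granules, was detected only in Empty cells of the 4 arrays, at a level too near the detection floor for a bound. The secretory list had 50% called, against 11.2% of all genes. Of 17 measured transcription factors of gut and liver 4 rose and 0 fell, which is 23.5% called. SOX9, of crypt progenitors, rose by 1.29, NR5A2 by 1.10, FOXA3 by 0.92 and PPARG by 0.73. SOX9 stood at 11.67 and 11.47 in ESRP1-overexpressing cells, against 10.35 and 10.21 in Empty cells. The PPARG call was lost without either ESRP1-overexpressing replicate or Empty replicate 2 (adjusted p up to 0.094 from limma). Of 11 measured factors of epithelial-mesenchymal transition and epithelial identity, the targeted gene ESRP1, WWTR1 and OVOL2 rose. OVOL2, a repressor that guards the epithelial state, rose by 0.97.

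The called interferon-induced genes were lower apart from MX1 and UBE2L6. Of 27 measured genes 7 were lower and 2 higher, with a median of -0.308. That is 33.3% called, against 11.2% of all genes. On leaving out any 1 of the 4 arrays 2 to 5 were lower and 1 higher. BST2 (tetherin, which holds budding virus at the cell surface) was at 10.86 and 11.05 in ESRP1-overexpressing cells, against 12.4 and 12.36 in Empty cells, a log2 fold change of -1.43 (SE 0.13, adjusted p = 0.0014 from limma). LGALS3BP, a secreted ligand of galectins, was at 7 and 6.85, against 8.36 and 8.3 in Empty cells, at least 2.43-fold lower. MX1, a GTPase that blocks viral replication, went against the list at 8.98 and 8.95, against 6.02 and 6.33, not detected, in Empty cells, at least 3.91-fold higher. All 3 genes were separated between the groups. OAS1, a sensor of double-stranded RNA, was at least 1.71-fold lower, a call lost without either ESRP1-overexpressing replicate or Empty replicate 1 (adjusted p up to 0.12 from limma), and of its other 2 probes none was called. In antigen presentation CD74, the invariant chain of class II molecules, was at 8.22 and 8.2, against 9.72 and 9.71 in Empty cells, a log2 fold change of -1.5, while the peptide transporter subunit TAP2 was at least 1.59-fold higher and the immunoproteasome subunit PSMB8 at least 1.34-fold.

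Interferon signalling acts on promoters through the interferon-stimulated response element, and its letters, GAAA, any 2 bases and GAAA again, were searched on both strands of the RefSeq promoters (GRCh38.p14). The motif stood in 1255 of 35116 promoters (3.57%), and in 17 of the 25 interferon-induced genes with a promoter in the table, of 27 measured. Of the 9 called genes 5 held it: MX1, which rose, and BST2, EPSTI1, LGALS3BP and OAS3, which fell. Stretches of 4 of these are shown because the motif occurs in genes that moved in both directions. MX1 lies at chr21:41420544-41420603 on the plus strand, with the match just after the gene start. BST2 lies at chr19:17405720-17405785 on the minus strand, with 2 overlapping matches 130 and 124 bases before the start. EPSTI1 lies at chr13:42992257-42992316 and LGALS3BP at chr17:78979947-78980006, both on the minus strand, with matches 50 and 58 bases before the start. Capitals mark the motif.
MX1: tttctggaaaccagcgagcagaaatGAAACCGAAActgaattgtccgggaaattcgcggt
BST2: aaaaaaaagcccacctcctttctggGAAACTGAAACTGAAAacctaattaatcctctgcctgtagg
EPSTI1: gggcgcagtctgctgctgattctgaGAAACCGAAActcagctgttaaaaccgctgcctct
LGALS3BP: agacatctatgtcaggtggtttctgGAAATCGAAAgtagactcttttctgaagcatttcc

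The called feedback genes of the ERK pathway were all higher. Of 18 measured members 5 were higher and 0 lower (27.8%, where 5.94% of all genes were higher), with a median of 0.258, and 3 to 5 were higher on leaving out any 1 of the 4 arrays. DUSP6, the phosphatase that switches off ERK, was at 11.47 and 11.41 in ESRP1-overexpressing cells, against 10.22 and 10.21 in Empty cells, and rose by 1.22 (SE 0.11, adjusted p = 0.0013 from limma). The ETS factor ETV5 rose by 1.14 and SPRY1, an inhibitor of receptor tyrosine kinase signalling, by 0.97. DUSP6, ETV5 and SPRY1 were each separated between the groups and kept their calls. PHLDA1 rose by 0.81 and IER3 by 0.74, both lost without either ESRP1-overexpressing replicate (adjusted p up to 0.069 from limma). Of 25 immediate early genes 6 were higher and 0 lower, with a median of 0.358, but this count ran from 0 to 3 on leaving out any 1 of the 4 arrays. MYC, for example, rose by 0.62 (13.38 and 13.36, against 12.75 and 12.75 in Empty cells), was lost without any 1 of the 4 (adjusted p 0.051 to 0.077 from limma), and was not called at its other probe (0.29).

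Over all genes 11.2% were called, against 38.5% of the IGF list, 42.9% of FGF, 31.8% of Wnt and 18.5% of TGF-beta and BMP. In the IGF list 5 of 13 genes were higher and 0 lower, led by IGFBP4, a secreted binding protein of IGFs. It was at 10.1 and 9.9 in ESRP1-overexpressing cells, against 8.66 and 8.07 in Empty cells (log2 fold change 1.64, adjusted p = 0.0043 from limma). The other 4 were IRS1, IRS2, IGF2BP2 and IGF2BP3 at 0.49 to 0.77, and each of them lost its call on leaving out single arrays. In those fits 1 to 5 genes of the list were higher. In the FGF list 4 of 14 were higher and 2 lower (0 to 3 and 1 on leaving out single arrays): the FGF co-receptor KLB was at least 1.59-fold higher, SOS1 and FLRT3 rose by 1.00 and 0.96, and FGF13 was at least 1.73-fold lower. KLB, SOS1 and FLRT3 were all lost without either ESRP1-overexpressing replicate or Empty replicate 1 (adjusted p up to 0.11 from limma). In the Notch list the ligand JAG1 rose by 1.31 (10.97 and 11.06, against 9.65 and 9.76 in Empty cells), the glycosyltransferase MFNG was at least 2.83-fold higher and the DNA-binding partner RBPJ at least 2.33-fold, 3 of 21 with 0 lower. The Notch list had 14.3% called, near the 11.2% of all genes, and a median of -0.109. WNT5B rose by 1.46 and BMP7 changed by -1.20 in lists with 5 higher and 2 lower of 22 (Wnt) and 2 higher and 3 lower of 27 (TGF-beta and BMP). On leaving out single arrays these counts were 2 or 3 higher and 1 lower (Wnt), and 0 to 2 higher and 1 or 2 lower (TGF-beta and BMP). PIK3R1, the regulatory subunit of PI3K, rose by 1.11, and of 29 PI3K and AKT genes 4 were higher and 0 lower, 1 to 3 on leaving out single arrays. That is 13.8% called, near the 11.2% of all genes.

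In the lists of matrix and actin genes the share called exceeded the 11.2% of all genes. It was 32% for proteoglycans, 46.2% for laminins, collagens and basement membrane, 30.6% for proteases and inhibitors and 30.6% for actin genes. VCAN, the large proteoglycan versican, was at 10.16 and 10.42 in ESRP1-overexpressing cells, against 8.05 and 7.73 in Empty cells, and rose by 2.40 (SE 0.29, adjusted p = 0.0036 from limma). With SULF2 it led a list in which 5 of 25 proteoglycan genes were higher and 3 lower, and 2 to 4 were higher on leaving out any 1 of the 4 arrays. PCOLCE2, which enhances procollagen processing, was at least 2.03-fold higher, COL26A1 rose by 1.40, COL2A1, the collagen of cartilage, changed by -1.46 and NPNT, a basement membrane ligand of integrins, was at least 2.11-fold lower. Laminins, collagens and basement membrane genes had 7 higher and 5 lower of 26, and 3 to 6 higher and 3 or 4 lower on leaving out any 1 of the 4 arrays. Among 36 proteases and inhibitors 7 were higher and 4 lower (4 to 6 and 1 to 5 on leaving out single arrays): SERPINE2 rose by 1.69 and the collagenase MMP1 by 1.63, at 11.15 and 11.18, against 9.41 and 9.66 in Empty cells. The COL26A1 call was lost without either ESRP1-overexpressing replicate or Empty replicate 1 (adjusted p up to 0.058 from limma). Actin genes had 5 higher and 6 lower of 36 (3 and 4 or 5 on leaving out single arrays), with SORBS2, an adaptor of stress fibres, at least 4.55-fold higher and PALLD, an actin scaffold, at 1.13.

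In drug and aldehyde metabolism 5 of 50 genes were higher and 15 lower, with a median of -0.046. That is 40% called, against 11.2% of all genes. On leaving out any 1 of the 4 arrays 8 or 9 were lower and 2 or 3 higher. UGT1A6, which conjugates phenols with glucuronic acid, was at 8.66 and 8.63 in ESRP1-overexpressing cells, against 9.97 and 9.96 in Empty cells, and changed by -1.32 (adjusted p = 0.00054 from limma). Probes of the UGT1A genes share exons and may not tell them apart. RDH5, a retinol dehydrogenase, was at least 2.68-fold lower and the aldo-keto reductase AKR1C2 changed by -1.11, a call lost without Empty replicate 1 (adjusted p = 0.053 from limma). HSD17B2, the largest rise of this list, was 1 of the 20 largest overall. In glycolysis HK1 changed by -1.48, at 9.63 and 9.43, against 10.99 and 11.02 in Empty cells, while HKDC1 rose and PDK3, which slows pyruvate oxidation, rose by 1.71.

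**Figure D2:**
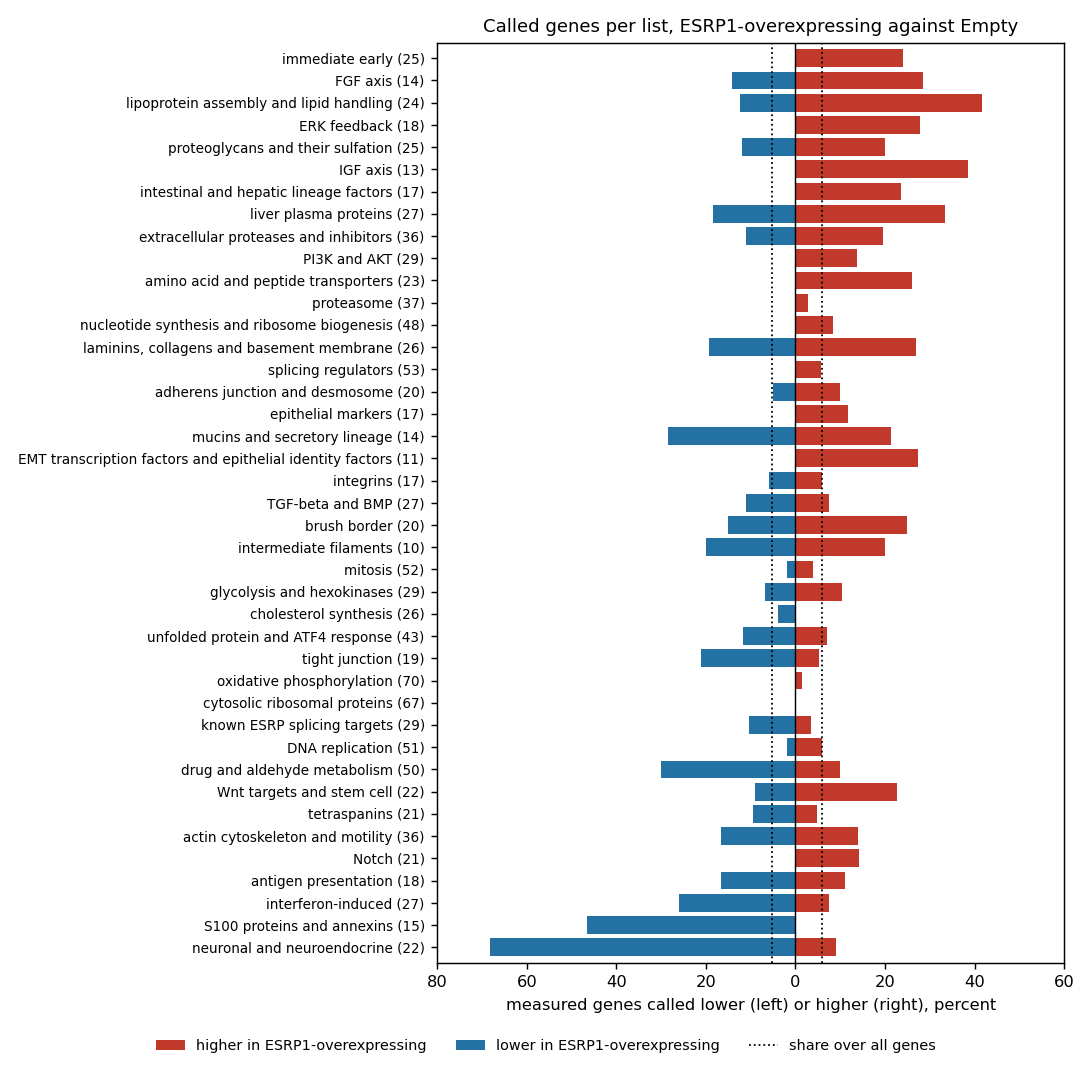
Share of measured genes called lower (left) or higher (right) in ESRP1-overexpressing against Empty cells, in percent, for each gene list with at least 10 measured genes (rows), with the shares of all genes (5.22% lower and 5.94% higher) as lines. Among these lists the neuronal and neuroendocrine list reaches furthest to the left with 15 of 22 genes, and ribosomal proteins have no bar with 0 of 67.

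Of 53 measured splicing regulators, the targeted gene ESRP1, FUBP1 (at least 1.96-fold higher) and RBM38 (0.62) were higher and 0 lower. With ESRP1 counted, that is 5.66% called higher, against 5.94% of all genes, with a median of 0.077. RBM38 was lost without either ESRP1-overexpressing replicate or Empty replicate 1 (adjusted p up to 0.10 from limma). Of 29 genes known to be spliced by ESRP proteins 1 was higher (GOLIM4, 0.59) and 3 were lower (SCRIB, PALM at -0.49 and ABI1 at -0.45), and each of these 4 lost its call without at least 3 of the 4 arrays in turn. The share called was 13.8%, near the 11.2% of all genes. These are levels of single probes, and splice isoforms were not analysed here. Probes were called in opposite directions for 2 genes. NRP1, a co-receptor of semaphorins and VEGF, gave -0.52 at a probe with levels of 9.45 and 9.48, against 9.88 and 10.08 in Empty cells, and 0.77 at a probe with levels of 9.42 and 9.18, against 8.37 and 8.69 in Empty cells. ZNF789 gave 0.59 and -0.47. Of 2393 genes with several kept probes 385 had a call. In 104 all probes were called in the same direction, in 279 only some were called, and in 43 the probes differed by over 1 log2 unit.

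Lists of housekeeping machinery held few called genes. Of 67 cytosolic ribosomal protein genes 0 were called (median -0.018), of 70 oxidative phosphorylation genes 1 was higher, of 37 proteasome genes 1 was higher, of 26 cholesterol synthesis genes 1 was lower and of 52 mitosis genes 2 were higher and 1 lower. The share of all genes called was 11.2%. Among probes it was 14.4% in the lowest bin of mean level and 5.79% in the highest. The levels of these lists were not compared with those of other genes. RPL37, the ribosomal protein with the largest change, was at 7.75 and 9.03 in ESRP1-overexpressing cells, against 7.84 and 7.69 in Empty cells, and was not called (adjusted p = 0.39 from limma). The S100 proteins and annexins had 7 of 15 lower and 0 higher with a median of -0.474, but 0 or 1 were called on leaving out any 1 of the 4 arrays. S100A6, for example, was at 13.27 and 13.38, against 13.94 and 13.97 in Empty cells (log2 fold change -0.63, adjusted p 0.015 from limma, and up to 0.096 on leaving out 1 array).

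Non-coding RNAs were called at 4 higher and 7 lower of 106 long non-coding genes and 5 higher and 3 lower of 120 snoRNA genes, which is 10.4% and 6.67% called, against 11.2% of all genes. Besides UCA1, HULC, first found in liver cancer, was at 10.42 and 10.28 in ESRP1-overexpressing cells, against 8.94 and 8.72 in Empty cells, and rose by 1.52. SNORA61 rose by 1.06, VLDLR-AS1 changed by -1.23 and CYTOR by -0.70. These 4 were named after their values were seen. Strand-specific design of the probes was not examined, so an antisense gene and its partner may share signal.

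The longer leukocyte list moved with these results: of 7 measured genes 1 was higher (LYZ) and 3 lower (LCP1, CD74 and CSF1R). That is 57.1% called, against 11.2% of all genes. CSF1R, the receptor of macrophage growth factor, changed by -0.79 (7.23 and 7.41, against 8.1 and 8.13 in Empty cells, adjusted p = 0.026 from limma), and was lost without any 1 of the 4 arrays. The summed log2 levels of the 7 leukocyte markers on the array were 43.6 to 43.9 in ESRP1-overexpressing cells, against 44.9 to 45.3 in Empty cells, with PTPRC, CD3E, CD2, MS4A1 and CD53 not detected. Of the longer fibroblast list 4 genes were measured, and 2 were higher and 0 lower. PDGFRA, a receptor of platelet-derived growth factor on chromosome 4, was at 11.49 and 11.39 in ESRP1-overexpressing cells, against 9.95 and 9.94 in Empty cells, and rose 2.83-fold (adjusted p = 0.00053 from limma). COL5A1, a fibrillar collagen, rose by 0.60 (adjusted p = 0.048 from limma), a call lost without either ESRP1-overexpressing replicate or Empty replicate 2. Of the longer endothelial list 1 gene was measured, the junctional adhesion protein ESAM. It was at 6.62 and 6.01, not detected, in ESRP1-overexpressing cells, against 7.96 and 8.38 in Empty cells, a fall of at least 2.17-fold, with an adjusted p of 0.0037 from limma. The calls of PDGFRA and ESAM were kept without any 1 of the 4 arrays. On the shorter fibroblast list the sums were 49.1 to 49.9, against 48.3 to 50.3, and on the shorter endothelial list 32.2 to 33.3, against 31.3 to 33. The part of other cells in the results was not tested.

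The calls were unevenly spread over the chromosomes. On chromosome 4, 86 of 326 measured genes were higher and 4 lower, which is 26.4% higher against 5.94% of all genes. The median log2 fold change of its genes was 0.36, and 85.9% of them were positive. Each ESRP1-overexpressing array stood above each Empty array by nearly the same amount, with median differences of 0.35, 0.38, 0.35 and 0.38 over the 4 array pairs, against 0.01 between the ESRP1-overexpressing arrays and 0.02 between the Empty arrays. Chromosome 4 held 14.9% of the genes called higher and 3.36% of the measured genes, and 5 of the 20 largest rises (OCIAD2, MTTP, FSTL5, SLC10A4 and ODAM). FSTL5, a secreted follistatin-like protein, was at least 2.9-fold higher, SLC10A4, a vesicular transporter, at least 2.65-fold and ODAM, an enamel-associated protein, at least 3.54-fold. None of the 20 largest falls lay there.

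Chromosome 15 lay opposite, with 37 of 290 genes lower, 7 higher and a median of -0.22. The medians of the chromosomes other than 4 lay between -0.22 and 0.11, those between the 2 arrays of a group between -0.05 and 0.04, and those of ESRP1-silenced against Scr cells between -0.07 and 0.01. Against the Scr arrays of the other chip, the chromosome 4 median was 0.21 for ESRP1-overexpressing and -0.16 for Empty cells. Over 10 alternatives the chromosome 4 median was 0.30 to 0.38 with 31 to 133 genes higher (31 to 56 on leaving out any 1 of the 4 arrays), and that of chromosome 15 was -0.23 to -0.17. These alternatives were applied to the chromosomes after seeing the data. With each array centred on the median of each chromosome, likewise chosen after seeing the data, 754 probes were higher and 693 lower. Why neighbouring genes moved together was not tested.

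**Figure D3:**
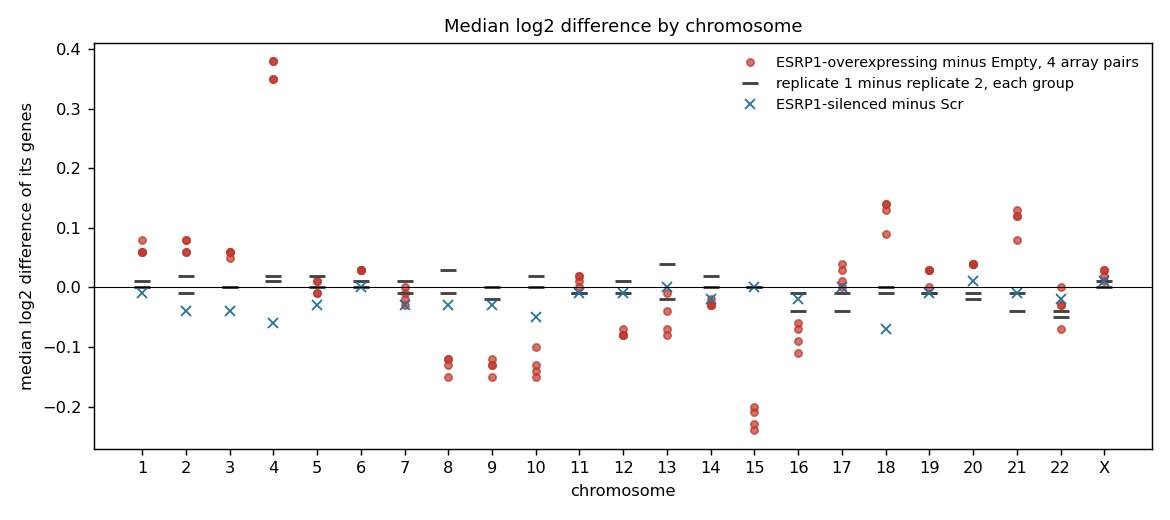
Median log2 difference of the measured genes of each chromosome (x axis) for ESRP1-overexpressing minus Empty, ESRP1-silenced minus Scr, and the 2 arrays of a group (y axis). Chromosome 4 stands highest at 0.36 and chromosome 15 lowest at -0.22, while the differences between arrays of a group stay between -0.05 and 0.04.

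Along the gene order (RefSeq, GRCh38.p14) the genes were cut into 388 windows of 25 neighbouring measured genes. The window medians had a standard deviation of 0.16 for ESRP1-overexpressing against Empty cells, against 0.068 for ESRP1-silenced against Scr cells, 0.042 between the ESRP1-overexpressing arrays and 0.056 between the Empty arrays. A total of 64 windows lay beyond 0.2 on either side, 35 above and 29 below, against 1 for silencing, 0 between the ESRP1-overexpressing arrays and 2 between the Empty arrays. With 50 genes a window, chosen after seeing the data, 28 of 195 windows did so, against 0 in the other 3 differences. On chromosome 4 all 13 windows were above, from ZNF876P to FRG1.

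Longer runs were found on 3 other chromosomes. On chromosome 1 the 175 genes from CC2D1B to CD58 had a median of 0.42, with 47 higher and 2 lower, and the 75 from SNORA61 to ZMPSTE24 a median of 0.34, with 18 higher and 3 lower. On the same chromosome the window from UBAP2L to RUSC1, which holds MUC1 and AQP10, had a median of -0.45 with 0% of its genes positive, and the window from SNX27 to LTAP1, which holds the called S100 genes, a median of -0.26. On chromosome 12 the 150 genes from SLC38A4 to LEMD3 had a median of -0.28, with 1 higher and 25 lower, and the next window, MSRB3 to CAPS2, one of 0.33. This window holds LYZ and TSPAN8. On chromosome 15 the 90 genes from HCN4 to WASH3P had a median of -0.33 and the 75 from ZFYVE19 to POLR2M one of -0.24.

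**Figure D4:**
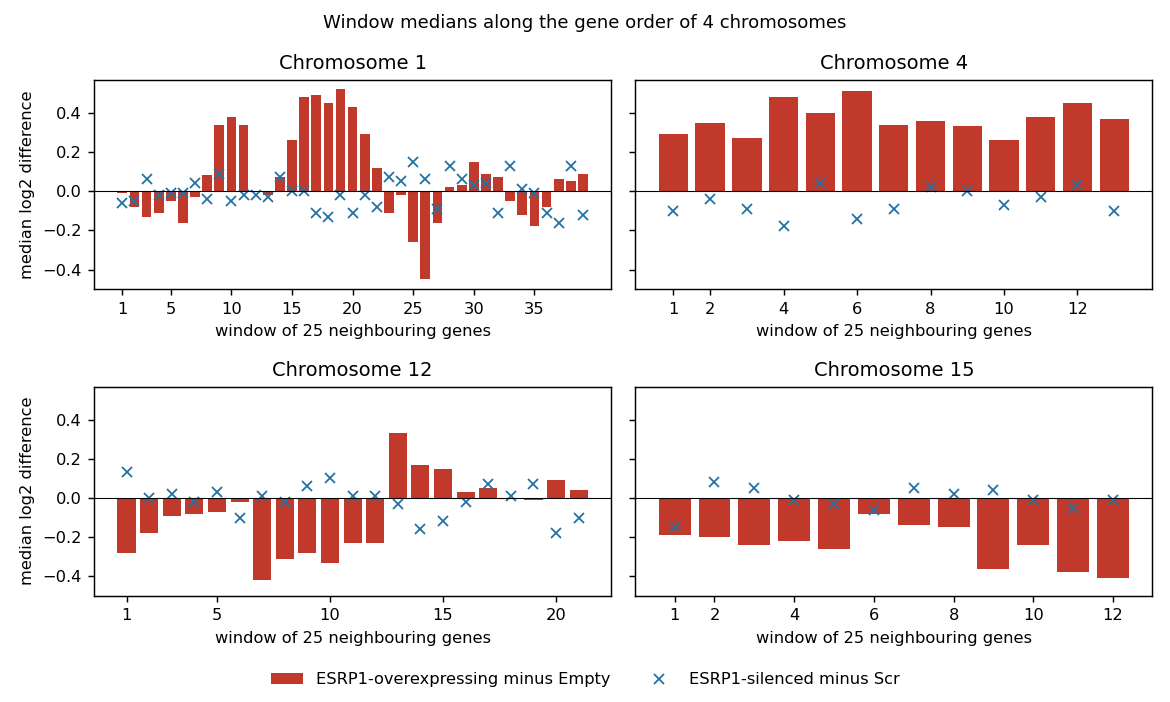
Median log2 difference (y axis) of windows of 25 neighbouring measured genes in gene order (x axis) on 4 chromosomes, for ESRP1-overexpressing minus Empty and ESRP1-silenced minus Scr. All 13 windows of chromosome 4 lie above 0.2 for overexpression, and chromosome 12 passes from below -0.2 to 0.33 within neighbouring windows.

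The levels in Scr cells lay between those of the groups for many called probes, although chip and group cannot be told apart across the chips. Of 891 probes higher in ESRP1-overexpressing cells, the Scr mean lay nearer to ESRP1-overexpressing cells for 536 and nearer to Empty cells for 355, and of 792 lower probes for 419 and 373. Of the 20 largest rises Scr was nearer to ESRP1-overexpressing cells for 17. PAMR1, for example, averaged 9.62 in ESRP1-overexpressing cells, 5.05 in Empty cells and 9.40 in Scr cells, and TSPAN8 had 13.42 in Scr cells. Of the 20 largest falls Scr was nearer to ESRP1-overexpressing cells for 8 and nearer to Empty cells for 12. Of the 281 probes detected only in ESRP1-overexpressing cells of the 4 arrays, 195 were detected on both Scr arrays and 40 on neither. Of the 314 detected only in Empty cells, 175 were detected on both Scr arrays and 80 on neither. The Scr arrays detected more probes (16966 and 16978) than the ESRP1-overexpressing and Empty arrays (15153 to 15627).

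Silencing of ESRP1 offers a comparison that shares no array with overexpression. In ESRP1-silenced cells the ESRP1 probe averaged 6.26, against 8.18 in Scr cells, a log2 fold change of -1.91 (adjusted p = 0.023 from limma). Among the 15680 probes kept by their detection on the ESRP1-overexpressing and Empty arrays, silencing called 15 higher and 36 lower. Probes detected only on the second chip were not tested. Of the 891 probes that rose with overexpression 453 (50.8%) had the opposite sign with silencing, as did 422 (53.3%) of the 792 that fell. These shares are near those of all probes, of which 49.8% were higher in ESRP1-silenced than in Scr cells. A total of 24 probes were called in both comparisons, 10 in the same direction and 14 in opposite directions. Over all probes 10.7% were called with overexpression. The counts are of probes and not of genes: 3 probes of TFPI are among the 10, and the targeted ESRP1 is among the 14. Among those that rose with overexpression and fell with silencing were ESRP1, the prion protein PRNP (0.91 and -0.85), the prostaglandin synthase PTGS2 (0.67 and -1.15), the kinase MAP2K3 (0.64 and -1.31) and GCNT3 (1.14 and -0.71). CST1 (-2.40 and 1.27), COL2A1 (-1.46 and 1.03) and the sodium channel subunit SCNN1A (-1.17 and 1.29) fell with overexpression and rose with silencing. TFPI, an inhibitor of coagulation, was lower in both at each of its 3 probes, and CEACAM6, a colon cancer adhesion protein, in both (-0.72 and -1.01). Genes of this paragraph other than ESRP1, CST1 and COL2A1 were named after their values were seen.

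The contrast that subtracts the change with silencing from that with overexpression was called for 905 probes, 5.77% of those tested, 485 positive and 420 negative. It was called for 375 of the 891 probes that rose (42.1%) and for 324 of the 792 that fell (40.9%). These probes were chosen for their change with overexpression, which is part of the contrast, so both shares are a description. For ESRP1 it was 3.68 (adjusted p = 0.00063 from limma).

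**Figure D5:**
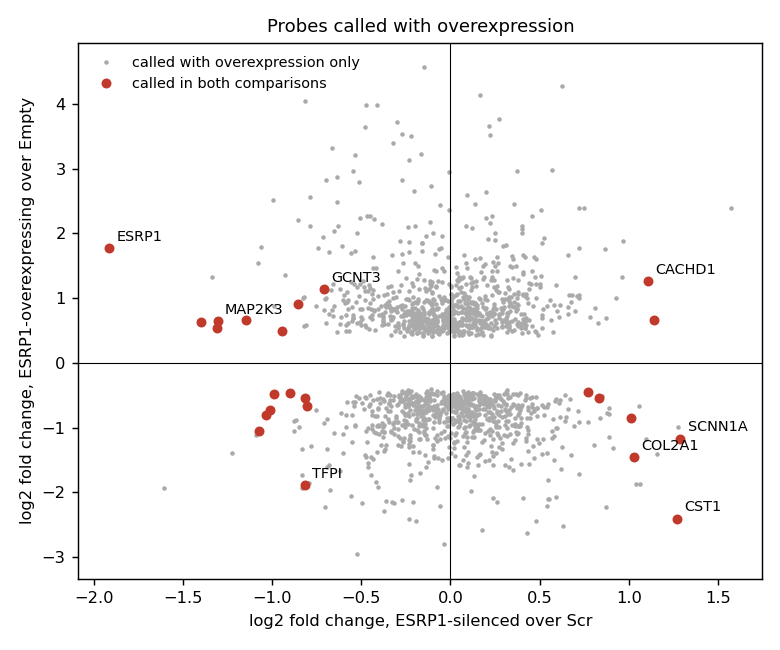
Log2 fold change of ESRP1-overexpressing over Empty (y axis) against ESRP1-silenced over Scr (x axis) for the probes called with overexpression, each point 1 probe. ESRP1 lies at 1.77 and -1.91 and CST1 at -2.40 and 1.27, while most called probes lie near 0 on the x axis.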

How the data were processed

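RNA of adherent Caco-2 cells was labelled and hybridised to Illumina BeadChips, 2 arrays in each of 4 groups. The authors deposited an intensity per probe and array, a mean bead signal neither normalized nor background-subtracted, and a detection p-value, in which 88 values written with a comma were read as 1. The authors also deposited intensity values that they had normalized, on the linear scale, used here only as an alternative. No source used here names the software or the method of that normalization.

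The 8 arrays were background-corrected and quantile-normalized with limma's neqc (offset of 16), which gives log2 values, in limma 3.58.1 and R 4.3.3. All 8 arrays entered 1 limma fit with 4 groups (4 residual and 3.4 prior degrees of freedom), with two-sided p-values adjusted by Benjamini-Hochberg over 15680 probes. The fit was tested on simulated data. Symbols came from platform annotation: 30113 probes had 1, 8 had several and 17201 had none. Of the kept probes 3040, and of the called ones 299, had no symbol. No per-array column was left unused.

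Gene lists, described by counts and medians, came from general knowledge. The members and lists were chosen with earlier results of these data known. Genes named were ESRP1, the 20 largest rises and 20 largest falls among called probes whose arrays do not overlap, and the up to 4 most changed called genes of each list, or its single most changed gene where none was called. Genes outside this rule were named after their values were seen: ALB, FGA, FGB, FGG, VTN, RBP4, CFB, CPN1, APOB, KYNU, GCNT3, UCHL1, SLC18B1, UBE2L6, EPSTI1, OAS3, NRP1, ZNF789, the non-coding RNAs besides UCA1, the genes at the ends of windows and most genes called in both comparisons. A probe detected on no array of a group has a bound in place of a fold. Promoter sequences are from RefSeq (GRCh38.p14). Some genes are not reported here. Alternatives were other normalizations, filters, fits and tests, and leaving out each array.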

Additional observations from a re-analysis of the deposited data

Results flagged for a closer look

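The change with ESRP1 overexpression differed from that with ESRP1 silencing, by limma's contrast of the comparisons, for 905 of 15680 probes at an adjusted p under 0.05. Of 160 named genes 107 differed, 68 with a positive difference (overexpression minus silencing) and 39 with a negative one. These genes were chosen for their change with overexpression, so this count is a description. Of these 160 genes 159 were called with overexpression and 3 with silencing. The 3 of these named genes called in both comparisons, 1 of them the targeted ESRP1, had opposite signs. This does not hold for all probes. Of the probes called higher with overexpression, silencing called 2 in the same and 8 in the opposite direction. Of those called lower it called 8 in the same and 6 in the opposite direction. ESRP1 differed by 3.68 log2 units, CST1 by -3.68 and COL2A1 by -2.49. Overexpression and silencing lie on different chips, so a difference between them and a difference between chips in the size of a change cannot be told apart. With 2 arrays per group, no array could be examined as standing apart from its group.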

How the results depend on the processing

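The count of calls moved with the normalization, the filter, the fit and the arrays used. Against 1683 called probes, 2642 were called with a trended and robust variance prior, 896 with normalization and fit of the 4 arrays alone, 689 with a fit of these 4 arrays, 508 with no detection filter, and 560 to 1483 on leaving out single arrays of the 8. The methods' t-test and fold filter called 425, of which 407 were shared with limma, and 0 after Benjamini-Hochberg at its threshold or 1 at 0.05, while limma at an unadjusted p under 0.05 had 4451. Quantile normalization, here and below meant without background correction, gave 2429, the authors' values 2350, detection on all 4 arrays 1662 and centred chromosomes 1447. For the difference of the comparisons, 905 in the main analysis, quantile normalization gave 1468, the authors' values 1383, the trended prior 1738, no filter 166 and leaving out single arrays 283 to 567. The cause of these shifts was not tested.

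The replicate number as a block gave 1433 called probes and 665 for the difference. The replicate differences of the 2 groups correlated at 0.0156 across probes. Whether arrays with the same replicate number shared a culture or handling was not tested. Of 159 named genes besides ESRP1, 15 lost significance under that block, 2 each with quantile normalization, the authors' values and the trended prior, 36 and 44 with the 4 arrays alone, and 56, 51, 40 and 38 without ESRP1-overexpressing replicates 1 and 2 and Empty replicates 1 and 2. Of the 158 of them that were called, 96 kept their call without any 1 of these 4 arrays and 62 lost it without at least 1. The direction of RPL37, not called, was -0.01 to 1.27 on leaving out single arrays, turning without ESRP1-overexpressing replicate 2, and no other named gene changed direction under the alternatives run. With the mean over the probes of a gene, the median of drug and aldehyde metabolism was 0.005 and that of the S100 proteins and annexins -0.303.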
